A study of Mus musculus with 12 samples.

Results

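The comparison described here sets MC3T3-E1 cells given bone morphogenetic protein 2 (BMP2) against cells given vehicle (Control), in 6 of the 12 RNA sequencing libraries of the series, 3 per arm. Its members are the 3 libraries labelled BMP2 and the 3 labelled Control, and 11548 of the 39032 genes in the table were tested, those at 1 FPKM or more in at least 3 of the 12 libraries. FPKM is the number of sequenced fragments scaled to transcript length and to the mapped fragments of the library. MC3T3-E1 subclone 14 is a clonal line of mouse pre-osteoblasts, cells of the skull vault that deposit and mineralise matrix when given ascorbate and phosphate, so the replicates are cultures of 1 clone and not separate animals. The labels give the genotype of every library as wild type and call the replicates independent biological ones. Both arms were kept for 5 days in α-MEM with 10% serum, β-glycerophosphate at 5 mM and ascorbic acid phosphate at 50 μg/mL. The BMP2 arm also received the recombinant human/mouse protein at 100 ng/ml. The remaining 6 libraries are cells given R-spondin 2 (RSPO2, a secreted protein that strengthens Wnt signalling) at 200 ng/ml, alone or with BMP2 at the same dose, and they enter below as a separate set of libraries in which BMP2 was also added.

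BMP2 is a secreted ligand of the TGF-β superfamily that binds type I and type II serine/threonine kinase receptors. The receptors phosphorylate SMAD1, SMAD5 and SMAD8, which enter the nucleus with SMAD4 and switch on genes such as the ID factors and the inhibitory SMADs. In mesenchymal cells the pathway is known for inducing bone and cartilage genes, and secreted antagonists such as noggin bind the ligand and limit it.

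The summed FPKM of the 6 libraries lay between 349483 and 372281, with 10797 to 11071 genes at 1 FPKM or more, and with no counts in the deposited table the sequencing depth is unknown. Replicate 1 stood apart in both arms. The 27 cell cycle genes tested had a median of 47.9 FPKM in Control replicate 1 against 11.2 and 12.1 FPKM in replicates 2 and 3, and of 41.4 FPKM in BMP2 replicate 1 against 18.9 and 19.3 FPKM. Results are therefore also given from replicates 2 and 3 alone. The osteoblast genes Runx2, Sp7, Alpl and Ibsp had values above 0 in each of the 6 libraries. Of 10 markers of blood cells, 5 were listed at 0 in these libraries, among them Ptprc, Adgre1, Cd3e and Itgam. The summed level of that list was 1.51 to 1.75 FPKM in Control and 2.89 to 4.20 FPKM with BMP2. Its 2 tested members were fitted higher with BMP2, by 0.47 and 0.90 on the log2 scale. Their median was 0.62 to 0.745 FPKM in Control and 1.10 to 2.05 FPKM with BMP2. By the adjusted test described below, neither was called over all replicates. Both were called higher from replicates 2 and 3 alone. The summed level of the endothelial markers was 0.25 to 0.69 FPKM in Control and 0.87 to 2.27 FPKM with BMP2, and no endothelial marker reached the level needed for testing. Both sums were low in either arm and higher with BMP2, and their part in the results was not tested.

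With BMP2, 175 of the 11548 genes tested (1.52%) differed from Control at an adjusted p under 0.05 in limma's moderated test, and these genes are called below. Of them 59 were higher (0.511% of the genes tested) and 116 were lower (1.00%), so that 66.3% of the calls were lower. That share was 55.9% after quantile normalization and 56.1% after median-of-ratios scaling. The 0.511% and 1.00% are also the shares to set beside the counts of called list members below. At an unadjusted p under 0.05 there were 1147 genes. The log2 change, taken on log2(FPKM + 1), was 1 or more in 32 of the called genes and -1 or less in 68, and its median over all genes tested was -0.06. The pseudocount of 1 makes the log2 change of a gene at low FPKM smaller than the ratio of its FPKM values. In each of the 175 genes the 3 BMP2 values lay outside the range of the 3 Control values, which was true of 2402 genes, or 20.8%, of those tested. From replicates 2 and 3 alone, 963 genes (8.34%) were called, 433 higher and 530 lower, and 169 of the 175 were among them.

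**Figure D1:**
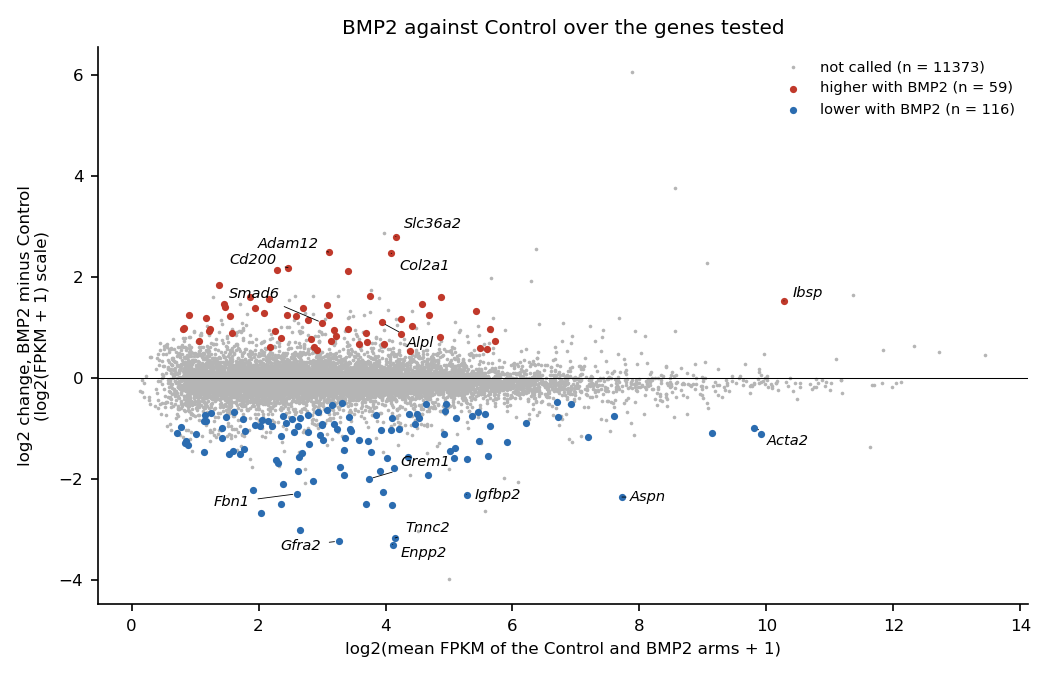
Each point is 1 of 11548 genes; the horizontal axis is log2 of the mean FPKM of the 2 arms plus 1 and the vertical axis the fitted log2 change, BMP2 minus Control. The 59 genes called higher (red) reach 2.80 for Slc36a2 and the 116 called lower (blue) reach -3.29 for Enpp2, and some grey points with larger changes were not called.

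The direct targets of the BMP-SMAD pathway were mostly higher with BMP2, but 2 of 18 members tested passed the test, Smad6 and Atoh8. Smad6, an inhibitory SMAD that limits BMP receptor signalling, was at 3.20, 4.6 and 4.6 FPKM in the Control replicates and at 8.82, 10.9 and 9.99 FPKM with BMP2. The lowest BMP2 value was above the highest Control value, and Smad6 rose by 1.10 on the log2 scale (SE 0.16, adjusted p = 0.0086). In whole cultures such as these, a change in the share of cells of a type and a change in RNA per cell cannot be told apart. Atoh8, a basic helix-loop-helix factor known as a BMP target, was at 2.16, 1.86 and 2.48 FPKM in Control and at 9.44, 5.40 and 5.37 FPKM with BMP2, a rise of 1.25 (SE 0.21, adjusted p = 0.0161). Its rise was larger in BMP2 replicate 1 than in the other 2 replicates. The call for Atoh8 was lost without Control replicate 1 or 2 (adjusted p up to 0.0735). It was also lost with a pseudocount of 0.1 and in a fit of the Control and BMP2 libraries alone. Smad6 was called without each of the 12 libraries in turn, with an adjusted p of at most 0.0488.

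The ID genes, which encode inhibitors of basic helix-loop-helix factors, did not pass the test in the fit of all libraries. Id1 was at 1.62, 1.24 and 0.71 FPKM in Control and at 2.44, 3.26 and 3.61 FPKM with BMP2, a log2 difference of 0.92 (SE 0.21, adjusted p = 0.0671). The groups did not overlap, and from replicates 2 and 3 alone Id1 was called, with a log2 change of 1.18 and an adjusted p of 0.012. Id1 was also called by limma without BMP2+RSPO2 replicate 1, a library outside this comparison (adjusted p = 0.0243). Id3 had the highest values of Id1, Id2 and Id3, at 35.4, 36.1 and 46.7 FPKM in Control and 91.5, 70.9 and 68.7 FPKM with BMP2 (log2 difference 0.95, SE 0.28, adjusted p = 0.178). Id2 varied more within each arm, with 9.88, 3.16 and 8.26 FPKM in Control and 19.8, 10.3 and 11.8 FPKM with BMP2 (log2 difference 0.95, SE 0.38, adjusted p = 0.406). Id4, named after its values were seen, was lower, at 1.63, 1.03 and 0.60 FPKM in Control and 0.13, 0.12 and 0.40 FPKM with BMP2, without overlap, and was not called (log2 difference -0.76, SE 0.21, adjusted p = 0.144). The fitted differences were thus above 0 for Id1, Id2 and Id3 and below 0 for Id4, and none of the 4 was called over all libraries. Smad7, the other inhibitory SMAD, differed by 0.25 (SE 0.19, adjusted p = 0.821), with Control at 1.85 ± 0.465 FPKM and BMP2 at 2.37 ± 0.404 FPKM (mean ± SD, n = 3 per arm here and below). The homeobox genes Dlx5 and Msx2 differed by 0.62 and 0.54, with adjusted p-values of 0.323 and 0.153. Over the 18 members the median log2 difference was 0.58, against -0.06 for all genes tested. Of these members 14 were fitted higher, 12 had BMP2 values above every Control value (6.23% of all genes tested did), 2 had BMP2 values below every Control value (14.6% did; Id4 and Msx1), and 6 were called higher from replicates 2 and 3 alone (3.75% of all genes tested were).

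The RefSeq sequences of the 250 bases before the start of Smad6, Atoh8 and Alpl are shown because these are the BMP targets and the mineralisation enzyme that were called higher. In GRCm38.p6 they lie at chr9:64022060-64022309, chr6:72235578-72235827 and chr4:137796385-137796634, each on the minus strand, and Alpl has another start in the same table, with a window at chr4:137766476-137766725. The Alpl window printed is the one of the pair that held a match. Capitals mark matches to 4 motifs searched on both strands: GGCGCC, a GC-rich element bound by BMP-activated SMADs; GTCTAGAC, a palindromic SMAD element; TGTGGT, a core bound by RUNX factors; and TAATTA, a core bound by homeobox factors.
Smad6: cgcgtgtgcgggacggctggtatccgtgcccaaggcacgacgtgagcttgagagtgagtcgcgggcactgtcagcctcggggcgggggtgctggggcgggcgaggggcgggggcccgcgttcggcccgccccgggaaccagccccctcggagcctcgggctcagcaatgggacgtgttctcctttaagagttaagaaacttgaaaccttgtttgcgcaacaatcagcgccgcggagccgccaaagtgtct
Atoh8: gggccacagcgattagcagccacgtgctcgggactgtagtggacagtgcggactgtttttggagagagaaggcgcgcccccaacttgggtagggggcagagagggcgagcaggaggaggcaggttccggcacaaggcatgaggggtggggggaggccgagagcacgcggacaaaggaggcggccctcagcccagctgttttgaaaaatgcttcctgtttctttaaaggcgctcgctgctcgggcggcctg
Alpl: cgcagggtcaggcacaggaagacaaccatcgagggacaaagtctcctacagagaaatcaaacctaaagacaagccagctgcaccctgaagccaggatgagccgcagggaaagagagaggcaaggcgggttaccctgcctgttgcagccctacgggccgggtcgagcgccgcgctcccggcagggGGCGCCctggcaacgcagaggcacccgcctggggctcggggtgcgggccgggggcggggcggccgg
The search was largely negative. The windows of Smad6, Atoh8 and Ibsp held none of the 4 motifs, and the Alpl window shown held GGCGCC once, 66 bases before the start, while the other Alpl window held none. GGCGCC was present in 8 of 60 windows of genes called higher (13.3%) and in 22 of 99 windows of genes called lower (22.2%), against 17.8% of the 9935 windows of genes tested and 9.59% of the 32851 windows in the table. TGTGGT was in 11.7% and 10.1% of the windows of genes called higher and lower, against 10.3% of those of genes tested and 14.1% of all windows. TAATTA was in 6.67% and 4.04%, against 2.29% and 4.84%, and GTCTAGAC was in 0 of 60 and 0 of 99, against 0.161% and 0.167%. One more motif, GGAGCC, was searched after the Smad6 window had been read, so its presence there is no finding. It begins 102 and 18 bases before the Smad6 start, where it is not capitalised, and was in 28.3% and 33.3% of the windows of genes called higher and lower, against 35.9% of those of genes tested and 26% of all windows. Matches of these letters are a description of the windows and were not tested as binding sites.

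Among the ligands, Bmp2 itself was listed at 0 in the 6 libraries, and 6 BMP and GDF ligands were tested, of which Gdf6 fell. Gdf6, a BMP family ligand involved in joint and skeletal patterning, was at 5.19, 5.2 and 5.02 FPKM in Control and at 0.71, 0.13 and 0.22 FPKM with BMP2. Its change of -2.21 (SE 0.21, adjusted p = 0.000765) came with Control values that differed little from each other. Bmp4 ranged from 31.0 to 49.3 FPKM in Control and from 19.4 to 73.8 FPKM with BMP2, so the groups overlapped (log2 difference 0.04, SE 0.56, adjusted p = 0.999), and the sign turned when replicate 1 was left out of both arms (-0.32). Of the 6 TGF-β and activin ligands tested, Inhba fell; it encodes the subunit of activin A. Inhba was at 26.3, 19.9 and 21.1 FPKM in Control and at 5.22, 4.95 and 6.59 FPKM with BMP2 (log2 change -1.83, SE 0.32, adjusted p = 0.0186). The call for Inhba was lost without any one of the 6 Control and BMP2 libraries (adjusted p up to 0.0882).

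Of 12 receptors tested, 1 was called. Tgfbr2, the type II receptor for TGF-β, was at 49.3, 37.9 and 33.8 FPKM in Control and at 18.6, 18.5 and 17.3 FPKM with BMP2, a fall of 1.09 (log2 change -1.09, SE 0.13, adjusted p = 0.00247). The BMP2 values lay close together and well below those of Control. Bmpr1a, a type I receptor for BMP2, was at 19.9 ± 2.66 FPKM in Control and 19.3 ± 1.22 FPKM with BMP2 (log2 difference -0.03, SE 0.14, adjusted p = 0.999). The sign of that difference turned under both other scalings (0.04 in each), and Bmpr1b was listed at 0 in the 6 libraries. None of the 14 SMADs, SMAD ubiquitin ligases and corepressors was called by limma. An unadjusted p under 0.05 was found for 1 of them, and for 1147 of the 11548 genes tested. Of 9 TGF-β responsive genes, likewise, 0 were called and 2 were lower at an unadjusted p under 0.05.

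Among the 12 secreted antagonists and binders tested, 3 fell, against 1.00% of all genes tested called lower, and the list's median was -0.39. Grem1, gremlin 1, a BMP antagonist, was at 27.5, 17.6 and 16.0 FPKM in Control and at 6.08, 3.27 and 3.75 FPKM with BMP2 (log2 change -1.99, SE 0.23, adjusted p = 0.00231). Its levels did not overlap between the arms. Fstl1, a follistatin-like secreted glycoprotein, fell from 132 ± 22.5 to 76.4 ± 0.877 FPKM (-0.76, SE 0.13, adjusted p = 0.018), and Htra1, a secreted serine protease, from 83.5 ± 7.96 to 34.5 ± 7.4 FPKM (-1.27, SE 0.22, adjusted p = 0.0187). The Fstl1 call was lost without Control replicate 1 or 2 or any BMP2 library (adjusted p up to 0.0845), and the Htra1 call without any one of the 6 libraries (up to 0.0872). Nog, which encodes noggin, was at 1.62, 2.68 and 1.07 FPKM in Control and at 0.42, 0.44 and 1.03 FPKM with BMP2 and was not called (adjusted p = 0.406).

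Bone matrix genes had the highest median change of the lists with at least 5 tested members, 1.20 over 11 genes, although 2 of the 11 were called. Ibsp, bone sialoprotein, which nucleates mineral, was at 457, 683 and 793 FPKM in Control and at 2156, 1605 and 1724 FPKM with BMP2. It rose by 1.53 (SE 0.26, adjusted p = 0.0173), and the lowest BMP2 library was above the highest Control library. Col24a1, a minor fibrillar collagen of bone, rose from 4.21 ± 1.46 to 11.0 ± 0.596 FPKM (1.24, SE 0.23, adjusted p = 0.0249). Both calls were lost without Control replicate 1 or 2 or any BMP2 library, with adjusted p-values up to 0.0689 for Ibsp and 0.115 for Col24a1. Dmp1, a phosphoprotein of osteocytes, was at 0.16, 27.1 and 34.8 FPKM in Control and at 4.25, 233 and 191 FPKM with BMP2, with replicate 1 low in both arms. Spp1, osteopontin, had the same low first replicate, at 201, 1616 and 1402 FPKM in Control and 380, 6354 and 5866 FPKM with BMP2. Neither was called over all replicates (log2 difference 2.56, SE 1.95, adjusted p = 0.835 for Dmp1; 1.65, SE 1.49, adjusted p = 0.9 for Spp1). From replicates 2 and 3 alone both were called, at 2.74 (adjusted p = 0.0027) and 2.02 (adjusted p = 0.00097). In that fit 8 of the 11 members were called higher and 2 lower, against 3.75% and 4.59% of all genes tested. Bglap2, an osteocalcin gene named after its values were seen, was at 68.3, 37.8 and 48.3 FPKM in Control and at 832, 662 and 602 FPKM with BMP2, without overlap, but was not called (log2 difference 3.77, adjusted p = 0.141). That p-value uses a spread taken from all 12 libraries, those with RSPO2 among them, and not from these values alone.

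**Figure D2:**
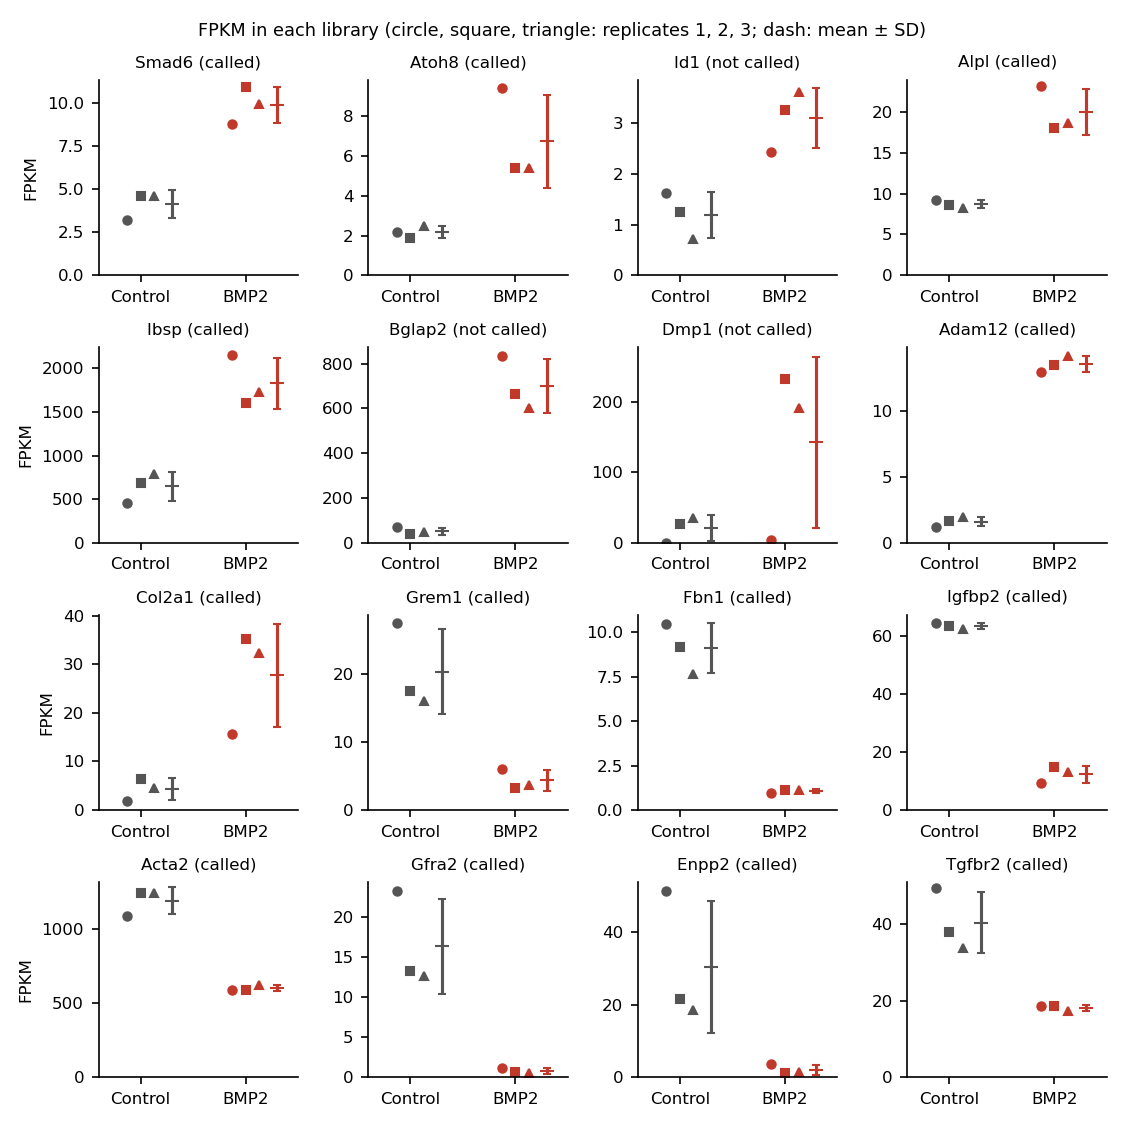
FPKM of 16 genes in each Control (grey) and BMP2 (red) library, each panel with its own axis from 0; circle, square and triangle are replicates 1, 2 and 3, and the dash with bars is the mean ± SD of 3. Dmp1 shows the low first replicate in both arms (0.16 and 4.25 FPKM), whereas Adam12, Fbn1 and Acta2 show arms that lie far apart.

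Alpl, tissue-nonspecific alkaline phosphatase, the enzyme that releases phosphate for mineral, was at 9.20, 8.64 and 8.30 FPKM in Control and at 23.2, 18 and 18.7 FPKM with BMP2. It rose by 1.10 (SE 0.19, adjusted p = 0.018), and the call was lost without any one of the 6 libraries (adjusted p up to 0.074). Nt5e, the ectonucleotidase CD73, fell from 8.28 ± 0.360 to 3.44 ± 0.291 FPKM (-1.06, SE 0.17, adjusted p = 0.0109), and its call was lost without Control replicate 3 or BMP2 replicate 2 (up to 0.0577). These were the 2 called of 9 mineral enzymes and phosphate transporters tested, whose median change was 0.00.

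Of 14 osteoblast transcription factors, Zfp521 was called. Zfp521, a zinc finger protein known to antagonise RUNX2, was at 14.6, 10.3 and 9.96 FPKM in Control and at 5.44, 5.00 and 5.15 FPKM with BMP2 (-1.01, SE 0.20, adjusted p = 0.038). Its call was lost in 9 of the 12 fits that left out 1 library, those without any Control, BMP2 or RSPO2 library (adjusted p up to 0.152), and after median-of-ratios scaling. Runx2, the factor that osteoblast formation requires, was at 29.9 ± 4.71 FPKM in Control and 39.0 ± 4.57 FPKM with BMP2 (0.38, SE 0.15, adjusted p = 0.384). Sp7, which acts downstream of it, was at 86.5, 130 and 157 FPKM in Control and at 192, 231 and 222 FPKM with BMP2 (0.82, SE 0.28, adjusted p = 0.271). Its values did not overlap between the arms, but the Control libraries differed widely.

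Of 18 surface and signalling genes of osteoblasts and osteocytes, 2 rose. Cd200, a surface glycoprotein, was at 0.38, 1.20 and 1.52 FPKM in Control and at 9.17, 7.94 and 6.92 FPKM with BMP2 (2.19, SE 0.29, adjusted p = 0.00415). Lifr, the receptor for leukaemia inhibitory factor, was at 12.7, 12.8 and 13.6 FPKM in Control and at 26.4, 28.2 and 29.1 FPKM with BMP2 (1.04, SE 0.12, adjusted p = 0.00196). Both arms of Lifr were tight, and both genes were called in every setting tried.

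Of 25 proteases of the ADAM, ADAMTS and MMP families and their inhibitors, Adam12 and Adamts9 rose. Adam12, a membrane-bound disintegrin and metalloprotease, had the smallest adjusted p of the comparison. It was at 1.22, 1.64 and 1.95 FPKM in Control and at 13.0, 13.5 and 14.2 FPKM with BMP2, a rise of 2.50 (SE 0.12, adjusted p = 9.73e-06). Adamts9, an aggrecan- and versican-cleaving protease, rose from 1.09 ± 0.095 to 2.89 ± 0.224 FPKM (0.89, SE 0.16, adjusted p = 0.0223). That call was lost without any one of the 6 libraries (up to 0.115). Mmp13, a collagenase named after its values were seen, was at 0.96, 2.43 and 2.26 FPKM in Control and at 4.29, 38.1 and 40.3 FPKM with BMP2, low in the first replicate, and was not called (log2 difference 2.87).

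Of 11 cartilage genes tested, Col2a1 was called, and the list's median was 0.35. In 4 of the 11 the BMP2 values were above every Control value and in 0 below, against 6.23% and 14.6% of all genes tested. From replicates 2 and 3 alone 4 were called higher, against 3.75% of all genes tested. Col2a1, the main fibrillar collagen of cartilage, was at 1.86, 6.40 and 4.63 FPKM in Control and at 15.6, 35.3 and 32.4 FPKM with BMP2 (2.47, SE 0.41, adjusted p = 0.0161). Its call was lost without Control replicate 1 or BMP2 replicate 2 or 3 (adjusted p up to 0.0847), and in the fit of the Control and BMP2 libraries alone. Acan, the main proteoglycan of cartilage, was listed at 0 in the 6 libraries.

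The smooth muscle contractile genes that passed the test were lower with BMP2. Acta2, smooth muscle actin, was at 1087, 1241 and 1243 FPKM in Control and at 590, 585 and 623 FPKM with BMP2 (-0.99, SE 0.13, adjusted p = 0.00415). Itga8, an integrin of contractile cells, fell from 6.32 ± 1.76 to 1.38 ± 0.473 FPKM (-1.61, SE 0.20, adjusted p = 0.00255). Lmod1, leiomodin, which nucleates actin filaments, fell from 9.43 ± 0.295 to 4.52 ± 0.261 FPKM (-0.92, SE 0.17, adjusted p = 0.0221). The Lmod1 call was lost after median-of-ratios scaling and without any one of the 6 libraries (up to 0.0931). These were 3 of 15 smooth muscle genes tested, against 1.00% of all genes tested called lower, and the list's median was -0.32. From replicates 2 and 3 alone 8 of the 15 were called lower, against 4.59% of all genes tested. Tnnc2, fast skeletal troponin C, 1 of 3 striated muscle genes tested, was at 43.5, 23.1 and 26.6 FPKM in Control and at 3.29, 2.12 and 2.10 FPKM with BMP2 (-3.16, SE 0.30, adjusted p = 0.000765). Myod1, which specifies skeletal muscle, was listed at 0 in the 6 libraries.

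Of 17 fibrillin and elastic fibre genes, 4 fell, against 1.00% of all genes tested called lower. Fbn1, fibrillin 1, the main microfibril protein, which also holds latent TGF-β and BMP complexes, was at 10.5, 9.18 and 7.66 FPKM in Control and at 0.94, 1.12 and 1.12 FPKM with BMP2 (-2.29, SE 0.14, adjusted p = 3.95e-05). Fbn2 was at 25.7, 23.7 and 24.8 FPKM in Control and at 3.34, 5.11 and 4.88 FPKM with BMP2 (-2.26, SE 0.23, adjusted p = 0.00113). Both fibrillins were far below Control in each BMP2 library. Fbln5, fibulin 5, fell from 13.6 ± 2.03 to 6.22 ± 0.0854 FPKM (-1.0, adjusted p = 0.0131) and Mfap4, a microfibril-associated glycoprotein, from 1.56 ± 0.502 FPKM to values of 0, 0.10 and 0 FPKM (-1.29, adjusted p = 0.00932). The Fbln5 call was lost without Control replicate 1 or 2 or BMP2 replicate 2 or 3 (adjusted p up to 0.0626), and the Mfap4 call without Control replicate 1 or BMP2 replicate 3 (up to 0.0513). Of 17 other collagens, 3 fell, against the same 1.00%, and the list's median was -0.67. Col8a1, a short-chain collagen, went from 92.8, 64.5 and 59.4 to 29.1, 21.2 and 21.2 FPKM (-1.55, SE 0.19, adjusted p = 0.00294). Col3a1, a fibrillar collagen of soft tissue, went from 740, 759 and 775 to 255, 423 and 424 FPKM (-1.08, SE 0.19, adjusted p = 0.018), and Col6a3 from 242 ± 15.3 to 144 ± 14.3 FPKM (-0.75, SE 0.11, adjusted p = 0.0086). Col3a1 lost its call under both other scalings and without any Control library (up to 0.074), and Col6a3 after quantile normalization and without Control replicate 1 (0.0503). Aspn, asporin, a small leucine-rich proteoglycan and the 1 called of 7 tendon genes, was at 395, 301 and 362 FPKM in Control and at 64.2, 66.1 and 73.8 FPKM with BMP2 (-2.35, SE 0.36, adjusted p = 0.00932; 0.0516 without Control replicate 1). Itgbl1, an integrin-like secreted protein, went from 9.09, 4.47 and 4.78 to 0.05, 0.11 and 0.07 FPKM (-2.67, SE 0.21, adjusted p = 0.000145). It was the 1 called of 12 tested members of the integrin list, which leaves out Itga8, called among the smooth muscle genes.

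**Figure D3:**
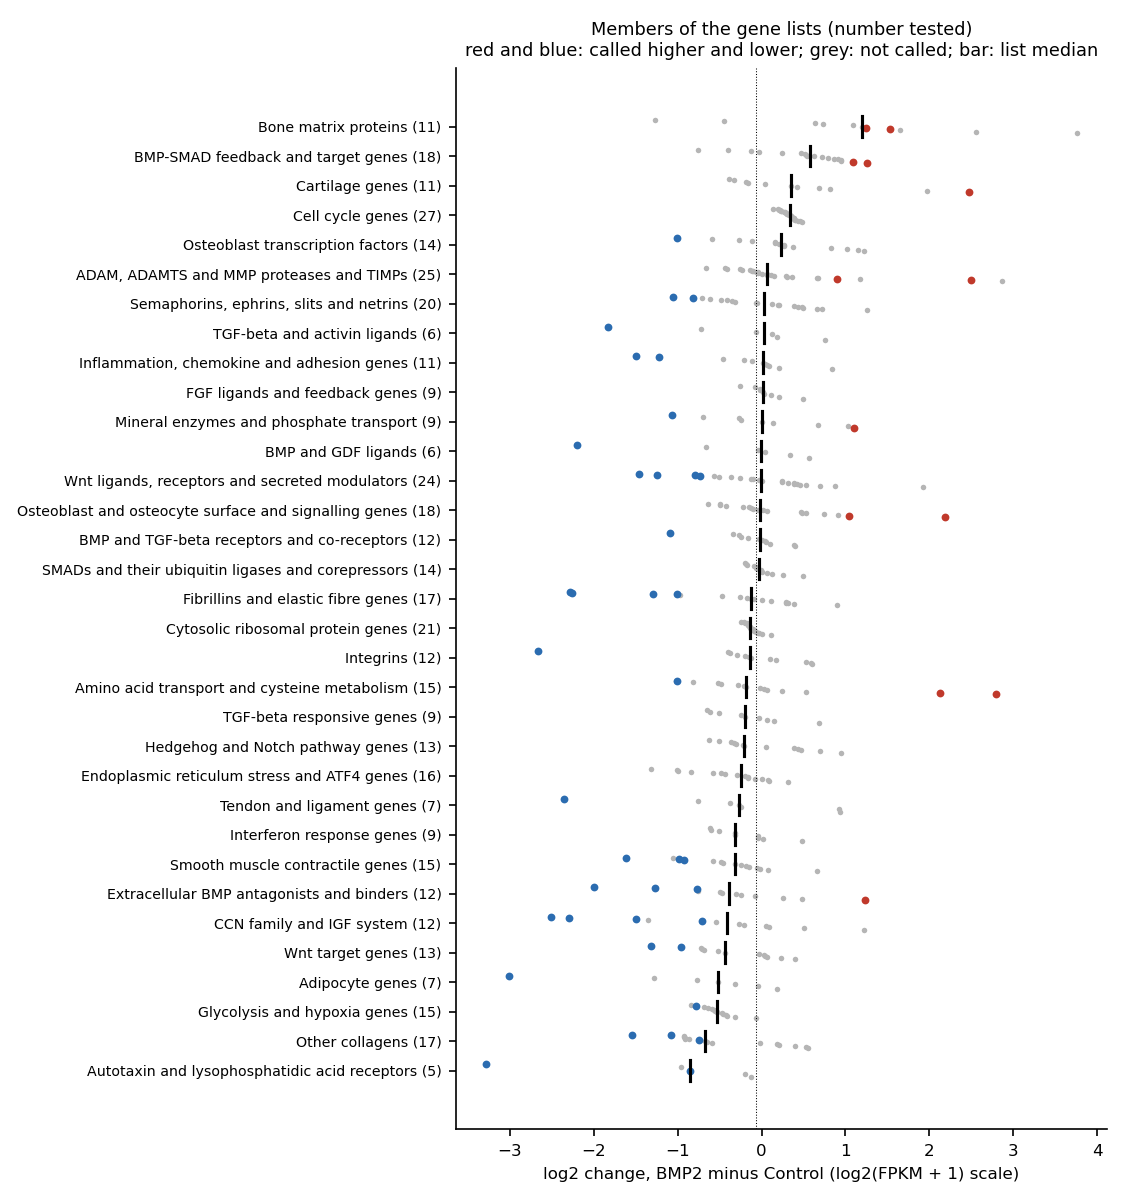
Each point is a tested member of a gene list at its log2 change, BMP2 minus Control; red and blue points were called higher and lower, black bars are list medians, and the dotted line is the median of all genes tested (-0.06). Bone matrix genes have the highest median (1.20) and the autotaxin list the lowest (-0.86), and most members of most lists were not called.

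Among growth factor modulators, 4 of 12 CCN and IGF genes were called lower and none higher, against 1.00% and 0.511% of all genes tested. In limma's test 2 were higher and 5 lower at an unadjusted p under 0.05. Igfbp2, a binding protein for insulin-like growth factors, was at 64.5, 63.4 and 62.2 FPKM in Control and at 9.16, 14.7 and 13.0 FPKM with BMP2 (-2.30, SE 0.15, adjusted p = 4.41e-05). Igf1, the ligand, was at 5.07, 2.54 and 2.36 FPKM in Control and at 0.47, 0.32 and 0.64 FPKM with BMP2 (-1.50, SE 0.24, adjusted p = 0.0131; 0.0669 without BMP2 replicate 2). The arms did not overlap for either gene. Igfbp7 fell from 57.8 ± 4.81 to 35.0 ± 2.34 FPKM (-0.71, adjusted p = 0.0153) and Nov, also called CCN3, a matricellular protein that can bind BMP2, from 49.2, 19.8 and 15.5 to 7.44, 2.14 and 2.52 FPKM (-2.51, SE 0.48, adjusted p = 0.0274). The Igfbp7 call was lost without Control replicate 1 or 3 or BMP2 replicate 2 or 3 (up to 0.0815), and the Nov call without Control replicate 1 or 2, BMP2 replicate 2 or 3 or RSPO2 replicate 2 (up to 0.131).

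Wnt pathway genes that passed the test were lower. Of 13 Wnt target genes, Nkd2, a feedback inhibitor that binds Dishevelled, went from 1.80, 0.98 and 1.01 to 0.33, 0.03 and 0.10 FPKM (-0.96, SE 0.17, adjusted p = 0.018), and Fgf18, a growth factor for skeletal cells, from 2.28, 1.11 and 1.6 to 0, 0.16 and 0 FPKM (-1.32, SE 0.27, adjusted p = 0.0408). Both were low genes, near 1 to 2 FPKM in Control. Of 24 Wnt ligands, receptors and modulators, 4 were called lower and none higher, against 1.00% and 0.511% of all genes tested. The median of the 24 was -0.004, with 12 members fitted higher and 12 lower. BMP2 values lay above every Control value in 7 and below in 7, against 6.23% and 14.6% of all genes tested. Wnt7b, an osteogenic Wnt ligand, went from 2.96, 1.77 and 2.0 to 0.17, 0.16 and 0.16 FPKM (-1.46, SE 0.19, adjusted p = 0.00404), and Sfrp2, a secreted Wnt-binding protein, from 66.0, 61.7 and 56.0 to 23.2, 26.7 and 25.6 FPKM (-1.25, SE 0.14, adjusted p = 0.00173). The receptors Fzd2 and Fzd7 fell from 17.1 ± 3.21 to 9.78 ± 0.155 FPKM (-0.74, adjusted p = 0.0274) and from 20.6 ± 0.876 to 11.5 ± 0.471 FPKM (-0.79, adjusted p = 0.0483). Calls were lost without Control replicate 1 or BMP2 replicate 2 or 3 for Nkd2 (up to 0.088) and without any one of the 6 libraries for Fgf18 (up to 0.175), Fzd2 (up to 0.118) and Fzd7 (up to 0.203). Fzd7 was lost in 11 of the 12 such fits and with a constant variance prior. Fgf18 was also lost after median-of-ratios scaling and Fzd7 after quantile normalization. None of the 9 tested members of the FGF list, which leaves out Fgf18, or of the 13 Hedgehog and Notch genes was called by limma. At an unadjusted p under 0.05 there were 0 of the FGF list and 9 of the others, 5 higher and 4 lower. Over the 11548 genes tested there were 1147.

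Among the genes with the largest falls were 2 secreted or receptor genes of other pathways. Enpp2, autotaxin, the enzyme that makes lysophosphatidic acid, was at 51.3, 21.6 and 18.5 FPKM in Control and at 3.71, 1.17 and 1.42 FPKM with BMP2 (-3.29, SE 0.38, adjusted p = 0.00239). Plpp3, a phosphatase that degrades that lipid, fell from 4.69 ± 0.387 to 2.16 ± 0.432 FPKM (-0.86, SE 0.16, adjusted p = 0.0242). The Plpp3 call was lost after quantile normalization, from replicates 2 and 3 alone (-0.72, adjusted p = 0.065), and without any one of the 6 libraries (up to 0.114). Gfra2, the receptor for neurturin, was at 23.2, 13.3 and 12.6 FPKM in Control and at 1.22, 0.64 and 0.59 FPKM with BMP2 (-3.22, SE 0.21, adjusted p = 4.41e-05). In both arms replicate 1 was the highest for Enpp2 and Gfra2, and the arms did not overlap. Apod, apolipoprotein D, 1 of 7 adipocyte genes tested, went from 17.2, 6.25 and 7.51 to 0.52, 0.24 and 0.14 FPKM (-3.01, SE 0.32, adjusted p = 0.00147).

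Rises among the largest called belonged to 2 genes of amino acid metabolism. Slc36a2, a proton-coupled transporter of small amino acids, was at 1.95, 3.84 and 5.18 FPKM in Control and at 34.4, 28.2 and 27.8 FPKM with BMP2 (2.80, SE 0.34, adjusted p = 0.00247). Cdo1, cysteine dioxygenase, the first enzyme of cysteine breakdown, was at 1.94, 2.66 and 4.45 FPKM in Control and at 20.9, 14.1 and 13.8 FPKM with BMP2 (2.12, SE 0.37, adjusted p = 0.018). The transporter Slc1a4 went the other way, from 23.7 ± 3.75 to 11.4 ± 2.55 FPKM (-1.0, SE 0.19, adjusted p = 0.0279). The other 12 of the 15 members were not called. The call for Cdo1 was lost without Control replicate 1 or 2 or any BMP2 library (up to 0.0843), and that for Slc1a4 after quantile normalization and without any Control library, BMP2 replicate 2 or 3 or BMP2+RSPO2 replicate 3 (up to 0.14).

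The called members of the remaining lists were lower. Vcam1, an adhesion molecule, fell from 10.3 ± 2.80 to 3.83 ± 0.718 FPKM (-1.22, adjusted p = 0.0219) and Il1rl1, the receptor for interleukin 33, from 3.86 ± 1.16 to 0.70 ± 0.260 FPKM (-1.50, adjusted p = 0.0335), 2 of 11 inflammation and adhesion genes. The guidance factors Slit2 (4.32 ± 0.662 to 2.02 ± 0.509 FPKM, -0.82, adjusted p = 0.0454) and Sema3c (3.68 ± 0.970 to 1.25 ± 0.398 FPKM, -1.05, adjusted p = 0.0483) were 2 of 20. Pfkp, a phosphofructokinase of glycolysis, fell from 6.99 ± 0.576 to 3.65 ± 0.402 FPKM (-0.78, adjusted p = 0.0304), 1 of 15 glycolysis genes, whose median was -0.54. Each of these 5 calls was lost in 4 or more of the 12 fits that left out 1 library, among them those without Control replicate 1 or 2 or BMP2 replicate 2 or 3, with adjusted p-values up to 0.111 for Vcam1, 0.156 for Il1rl1, 0.198 for Slit2, 0.219 for Sema3c and 0.125 for Pfkp. Slit2 and Sema3c were also lost under both other scalings and Pfkp after quantile normalization. The 27 cell cycle genes were fitted higher, with a median of 0.34. None of them was called by limma or had an unadjusted p under 0.05. From replicates 2 and 3 alone 24 were called higher, against 3.75% of all genes tested. No ribosomal protein, endoplasmic reticulum stress or interferon gene was called. In limma's test 0 of 21, 2 of 16 and 5 of 9 had an unadjusted p under 0.05, against 1147 of the 11548 genes tested. The 2 stress genes were lower, and of the 5 interferon genes 1 was higher and 4 were lower.

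Outside the lists, 9 genes were among the 15 largest rises. Gpr141, an orphan receptor, went from 0, 0.25 and 0.10 to 4.45, 2.57 and 2.26 FPKM (1.84, SE 0.19, adjusted p = 0.0013), and Pdgfd, a platelet-derived growth factor, from 0.70, 0.38 and 0.50 to 2.83, 3.16 and 3.12 FPKM (1.41, SE 0.19, adjusted p = 0.00443). Prss35, a secreted serine protease-like protein, was the most abundant, at 9.64, 11.6 and 13.4 FPKM in Control and 44.8, 27.3 and 30.1 FPKM with BMP2 (1.46, SE 0.22, adjusted p = 0.00855). Cfhr2, Smim5, Cd244, Slpi, Gprin3 and Fetub rose by 1.63, 1.61, 1.57, 1.44, 1.39 and 1.39. Of these, Cfhr2 lost its call without BMP2 replicate 3 (0.0536), and Cd244, Slpi, Gprin3 and Fetub without Control replicate 1 or BMP2 replicate 2 or 3, among others (up to 0.111, 0.0867, 0.165 and 0.175). Gprin3 was also lost after median-of-ratios scaling, and Gprin3 and Fetub were lost in 9 and 10 of the 12 fits that left out 1 library. Of the falls, Mrgprf, an orphan receptor, went from 27.3, 18.9 and 17.2 to 2.76, 2.73 and 3.07 FPKM (-2.50, SE 0.16, adjusted p = 4.41e-05). Cd34, a sialomucin of progenitor cells, went from 8.36, 7.03 and 7.01 to 1.3, 0.82 and 0.82 FPKM (-2.10, SE 0.30, adjusted p = 0.00628), and Gas2, a regulator of the cytoskeleton, from 16.2, 14.8 and 13.9 to 4.39, 2.48 and 3.06 FPKM (-1.91, SE 0.23, adjusted p = 0.00246).

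The same addition of BMP2 was measured in cells that also received RSPO2, in 6 libraries that are not part of the BMP2 against Control comparison, although 1 fit estimated the spread of both. There, 3015 genes (26.1%) were called, 499 higher (4.32%) and 2516 lower (21.8%). The split depended on the scaling, with 876 higher and 949 lower after quantile normalization and 895 and 956 after median-of-ratios scaling. Of the 175 genes called without RSPO2, 169 were called in the same direction, 54 of 59 higher and 115 of 116 lower, and 0 in the opposite one. BMP2+RSPO2 replicate 1 stood apart, with 57.8% of its FPKM in 10 genes, and without it the number was 168. Over the 11548 genes the changes correlated at Pearson r = 0.59 and Spearman rho = 0.51, as a description across genes, which are not independent replicates. The median change of the 59 genes called higher was 1.10 without and 1.46 with RSPO2, and 42 had the larger change with RSPO2. That of the 116 called lower was -1.08 without and -1.82 with RSPO2, and 109 had the larger change with RSPO2, beside medians of -0.06 and -0.26 over all genes tested. Because the 175 were chosen by their change without RSPO2, these medians carry no test. The interaction, which is the BMP2 effect with RSPO2 minus that without, was called for 34 genes (0.294%), 15 of them among the 175. Adam12 changed by 2.50 without and 2.62 with RSPO2, Alpl by 1.10 and 1.93, Ibsp by 1.53 and 3.08, and Smad6 by 1.10 and 0.92. The interaction of these 4 genes was not called, with adjusted p-values of 0.755, 0.255, 0.125 and 0.736.

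**Figure D4:**
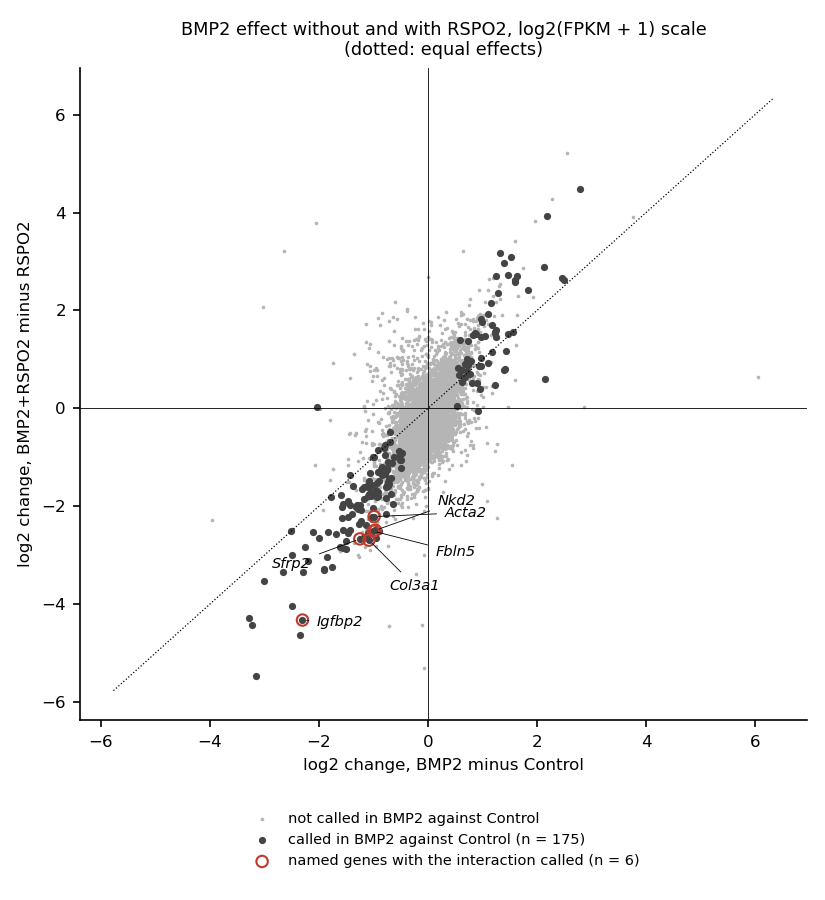
Each point is 1 gene; the horizontal axis is the log2 change BMP2 minus Control and the vertical axis the log2 change BMP2+RSPO2 minus RSPO2, with equal changes on the dotted line. Of the 175 genes called in the first comparison (dark), 173 have the same sign in both, and the 6 circled genes, named in the text with the interaction called, lie below the line.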

How the data were processed

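RNA of 12 cultures (4 arms of 3) was sequenced as stranded poly(A) libraries, per the labels' protocols. Per the submitters' processing notes, the tools were cutadapt 1.10, FastQC 0.10.1, HISAT2 2.0, StringTie 1.3.4 and edgeR without a version or role. The authors deposited 1 FPKM value per gene and library, rounded to 2 decimals; no counts were used, so depth is unknown and no counting interval is given. The notes name GRCm38 and mm10, but the identifiers are those of the C57BL/6NJ strain, so no coordinates of the table's genes were taken from it. The p-value and q-value columns that the authors deposited name no groups and were not used.

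From these values, log2(FPKM + 1) of genes at 1 FPKM or more in 3 or more libraries was fitted with limma 3.58.1 (R 4.3.3), 1 model of 4 arms over 12 libraries with a mean-dependent variance prior (8 residual and 2.505 prior degrees of freedom). Tests were two-sided and adjusted by Benjamini-Hochberg over the 11548 genes; adjusted p-values and SEs in the text come from limma. The fit was checked on simulated data. Named genes are a fixed panel, the 15 largest rises and 15 largest falls among called genes with a symbol, and every called member of 40 lists (732 entries, 460 of them tested); 79 genes in all. The members and lists were chosen with earlier results of these data known. Alternatives were other pseudocounts, filters, scalings and priors, replicates 2 and 3 alone, a replicate block, the 6 libraries alone, and leaving out each library. Windows of 250 bases came from RefSeq (GRCm38.p6), which held 56 of the 79 genes; 4 motifs were searched together and 1 more was added after a window had been read. The Ibsp window was searched but is not printed. Results for 2 list members, 1 of them called, are not reported here.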

Additional observations from a re-analysis of the deposited data

Results flagged for a closer look

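In 6 of the genes named above the effect of BMP2 differed between cells with and without RSPO2, by limma's test of the interaction, which compares the 2 effects directly. In each the fall with BMP2 was larger when RSPO2 was present. Without BMP2, mean levels were higher with RSPO2 than in Control for Nkd2 (6.34 against 1.26 FPKM) and Igfbp2 (138 against 63.4 FPKM). The same held for Sfrp2 (102 against 61.2 FPKM) and Fbln5 (19.45 against 13.55 FPKM), while Acta2 and Col3a1 were similar. With BMP2, Nkd2 was not lower when RSPO2 was present (0.307 against 0.153 FPKM), and the means of the other genes were. The difference of the log2 changes was -2.02 for Igfbp2 (adjusted p = 0.0165), which fell by 2.30 without and by 4.32 with RSPO2. It was -1.42 for Sfrp2 (adjusted p = 0.0242), -1.53 for Nkd2 (0.0308), -1.22 for Acta2 (0.0308), -1.50 for Fbln5 (0.0308) and -1.61 for Col3a1 (0.0384). The 6 genes were also called without BMP2+RSPO2 replicate 1, the library that stood apart, with adjusted p-values between 0.00741 and 0.0232. Under other scalings fewer calls were made. After quantile normalization the calls for Igfbp2 (adjusted p = 0.0439), Acta2 and Fbln5 (0.0498 each) were kept and those for Sfrp2, Nkd2 and Col3a1 were lost (0.084, 0.0995 and 0.103). After median-of-ratios scaling the 6 calls were lost, with adjusted p-values from 0.0542 to 0.151 and the same sign in each. Nkd2 was also not called with a pseudocount of 0.5 (adjusted p = 0.0789) or 0.1 (0.371). With no filter on low values Nkd2 and Fbln5 (0.0531 each), Col3a1 (0.0787) and Acta2 (0.0829) lost their calls, and Sfrp2 and Igfbp2 kept them. Calls were also lost when 1 library was left out. Without Control replicate 2 or 3, or BMP2 replicate 2 or 3, limma called 0 genes. Those fits had 1021, 1022, 1216 and 1192 genes at an unadjusted p under 0.05, and without RSPO2 replicate 2 limma called 1. The fitted interaction kept its sign in the 6 genes in these fits. For Igfbp2 it lay between -1.891 (without BMP2 replicate 2) and -2.025 (without Control replicate 2).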

How the results depend on the processing

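Of the 66 named genes called in BMP2 against Control, 29 were called in every setting that tested them and without each library in turn, and 54 under both other scalings. A pseudocount of 0.1 ended 10 of the 66 calls, 0.5 ended 4, no filter on low values 17 and the fit of the 6 libraries alone 15. These 15 were Atoh8, Col2a1, Col24a1, Cd244, Slpi, Fetub, Fzd2, Fstl1, Slit2, Sema3c, Slc1a4, Nkd2, Col3a1, Igf1 and Nov. The number of genes called, 175, became 963 from replicates 2 and 3 alone and ranged from 65 to 403 when 1 library was left out; the lowest counts were without Control replicate 1 (65) and BMP2 replicate 3 (66), and the highest was without BMP2+RSPO2 replicate 1 (403), with the 175 among them. With a replicate block it was 329, sharing 172 of the 175; among the named genes Dmp1, Id2 and Sp7 were then called (adjusted p = 0.00766, 0.0356 and 0.04) and Fzd7 and Fetub were not (0.0555 and 0.0614). Same-numbered Control and BMP2 libraries deviated together with r = 0.479, 0.246 and 0.0789. Control replicate 1 correlated at -0.378 and -0.246 with BMP2 replicates 2 and 3, so the first replicates did deviate in common. Control replicates 2 and 3 each correlated best with another number, so the numbers were not taken to pair the samples. Other pseudocounts, filters, scalings, priors and the 6 libraries alone gave 142 to 179 calls. BMP2+RSPO2 against RSPO2 gave 1825 calls after quantile normalization and 1851 after median-of-ratios scaling, and 1847 to 3058 leaving out 1 library, against 3015. The interaction gave 12 and 4 under those scalings, 1109 from replicates 2 and 3, 91 with the replicate block and 0 to 187 leaving out 1 library, against 34. The cause was not tested. Signs turned for 2 uncalled genes. Bmp4 (0.04) was at -0.32 from replicates 2 and 3, and ranged from -0.34 (without BMP2 replicate 3) to 0.60 (without BMP2 replicate 2), below 0 also without Control replicate 1 (-0.16) and BMP2 replicate 1 (-0.12). Bmpr1a (-0.03) was at 0.0364 after quantile normalization, 0.0351 after median-of-ratios scaling and 0.0444 from replicates 2 and 3, and ranged from -0.0969 (without Control replicate 2) to 0.0718 (without Control replicate 1), above 0 also without BMP2 replicate 2 (0.0209).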
